A study of Mus musculus with 2 samples.

Results

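The myosin light chain genes encode the small subunits that clasp the neck of each myosin heavy chain. The 10 genes Myl1, Myl2, Myl3, Myl4, Myl6, Myl6b, Myl7, Myl9, Myl12a and Myl12b were taken by gene symbol from the annotation, out of 55536 annotated genes, and all 10 were found. The symbol Myl12b belongs to 2 gene entries, so the family fills 11 entries. Total RNA was sequenced from the hearts of adult male mice, 8 to 10 months old, bred from 5xFAD and CAST, with 300 ng of RNA per library, ERCC spike-ins and a directional kit after ribosomal RNA reduction. 5xFAD is a transgenic line used in research on Alzheimer's disease, with transgenes driven by the neuronal Thy1 promoter, while CAST mice descend from wild animals and carry many alleles that differ from the reference genome. The labels do not say whether the sampled animals carried the transgenes. The 2 libraries form a single group with no control, and biological replicate 1 is called library 1 and replicate 2 library 2. Tissue samples are separate in the labels, yet the donor identifier is shared, and differences between the libraries may therefore be technical. The libraries hold 39819960 and 37060119 expected counts, estimates that divide a read among all the transcripts it fits.

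Each heavy chain binds a pair of light chains, an essential one next to the motor domain and a regulatory one further toward the rod. Myl1, Myl3, Myl4, Myl6 and Myl6b encode essential chains, and Myl2, Myl7, Myl9, Myl12a and Myl12b encode regulatory chains. In the heart, Myl2 and Myl3 are the ventricular pair and Myl7 and Myl4 the atrial pair. Myl3 also serves slow skeletal muscle, Myl1 is the fast skeletal essential chain, and Myl6, Myl6b, Myl9, Myl12a and Myl12b serve smooth muscle and nonmuscle myosins. Light chain kinases phosphorylate a serine near the start of the regulatory chains, which raises the activity of smooth muscle and nonmuscle myosin and modulates contraction in the sarcomere.

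The stretch around that serine shows both how the regulatory chains differ and how close some of them are. The coding sequences below run from the start codon to the codons for Asn-Val-Phe that follow the serine, read from the GENCODE transcripts, with the serine codon in capitals.
Myl2: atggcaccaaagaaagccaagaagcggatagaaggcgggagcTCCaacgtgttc
Myl7: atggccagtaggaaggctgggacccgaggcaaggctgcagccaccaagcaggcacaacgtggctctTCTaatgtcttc
Myl9: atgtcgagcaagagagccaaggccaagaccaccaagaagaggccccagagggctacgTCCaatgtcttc
Myl12a: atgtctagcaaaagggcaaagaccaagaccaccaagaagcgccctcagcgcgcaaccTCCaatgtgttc
Myl12b: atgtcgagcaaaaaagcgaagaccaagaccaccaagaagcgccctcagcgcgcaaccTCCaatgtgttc
The serine is codon 15 in Myl2, codon 23 in Myl7 and codon 20 in Myl9, Myl12a and Myl12b, counting the start codon as the first. Over these 69 bases Myl12a differed from Myl12b at 4 positions and from Myl9 at 13. Over the whole coding sequence Myl12a and Myl12b shared 96.5% of 519 aligned bases, stop codon included, and 97.7% of 172 residues. Myl9 and Myl12a shared 94.2% of residues but only 85.5% of bases. The chamber pairs were further apart, with 60.2% of residues shared by Myl2 and Myl7 and 78.2% by Myl3 and Myl4. Myl6 and Myl6b shared 76.2% of residues.

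The ventricular regulatory chain led the family. In TPM, the abundance of transcripts scaled for their length and for the library total, Myl2 (chromosome 5, 122100951 to 122113472, plus strand, mm10) stood at 7756 in library 1 and 7359 in library 2, a mean of 7558 ± 281 (SD, n = 2). It ranked first of all nuclear protein-coding genes in both libraries. The other genes nearest to it in level over the 2 libraries, by Euclidean distance of log2(TPM + 1), were Mb (myoglobin, 6937 and 6806), Myh6 (the alpha heavy chain, 6620 and 6911) and Actc1 (cardiac alpha-actin, 4327 and 4460). Myl3 (chromosome 9, 110741861 to 110769798, plus strand) stood at 3702 and 3646 TPM (3674 ± 39.4), ranks 8 and 7. The nearest to Myl3 were Tnnt2 (cardiac troponin T), Tpm1 (alpha-tropomyosin) and Atp2a2 (the calcium pump of the sarcoplasmic reticulum). Myl2 and Myl3 together held 91.5% of the summed TPM of the family in library 1 and 89.8% in library 2.

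The atrial chains were far lower. Myl4 (chromosome 11, 104550663 to 104595753, plus strand) stood at 263 and 355 TPM, a mean of 309 ± 64.7. Myl7 (chromosome 11, 5896637 to 5898782, minus strand) stood at 251 and 313 TPM, a mean of 282 ± 44.4. Both genes were higher in library 2, and their values overlapped each other between the libraries, so the order of Myl4 over Myl7 was within the spread even though Myl4 was above Myl7 inside each library. The pair held 4.10% and 5.45% of the family's TPM. Each was among the 3 genes nearest in level to the other. The other neighbours of Myl4 were Acsl1 and Ndufa1, and those of Myl7 were Ndufb5 and Fabp4.

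Of the chains of smooth muscle and nonmuscle myosins, Myl12a was the most abundant. Myl12a (chromosome 17, 70993656 to 71002878, minus strand) stood at 364 and 381 TPM (372 ± 11.9) and was outranked in the family by Myl2 and Myl3 alone, standing above both atrial chains. In the second quantification, a separate deposited table of transcript estimates, its 361 and 402 TPM overlapped the 271 and 380 of Myl4. Myl6 (chromosome 10, 128490860 to 128494145, minus strand) stood at 73.0 and 75.0 TPM (74.0 ± 1.36). Myl12b, at its main entry (chromosome 17, 70973133 to 70990890, minus strand), stood at 70.8 and 71.1 TPM (71.0 ± 0.219). These genes are expressed in most tissues, whereas Myl9 is best known from smooth muscle. Myl9 (chromosome 2, 156775420 to 156781658, plus strand) stood at 20.3 and 20.9 TPM (20.6 ± 0.424). Myl6b (chromosome 10, 128494157 to 128498685, minus strand), the neighbour of Myl6 on the same strand, stood at 1.09 and 0.900 TPM with 34 and 26 expected counts. These 5 genes, both Myl12b entries included, made up 4.33% and 4.57% of the family's TPM.

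The fast skeletal chain Myl1 (chromosome 1, 66924295 to 66945404, minus strand) was detected at 11.5 and 16.3 TPM, a mean of 13.9 ± 3.40. From the top the order was Myl2, Myl3, Myl12a, Myl4, Myl7, Myl6, Myl12b, Myl9, Myl1 and Myl6b, and Myl4 and Myl7 were the only neighbours in that order whose values overlapped. The same order of means was found in the second quantification. The family summed to 12526 and 12249 TPM, or 3.83% and 3.74% of all TPM on nuclear genes that code for protein.

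**Figure D1:**
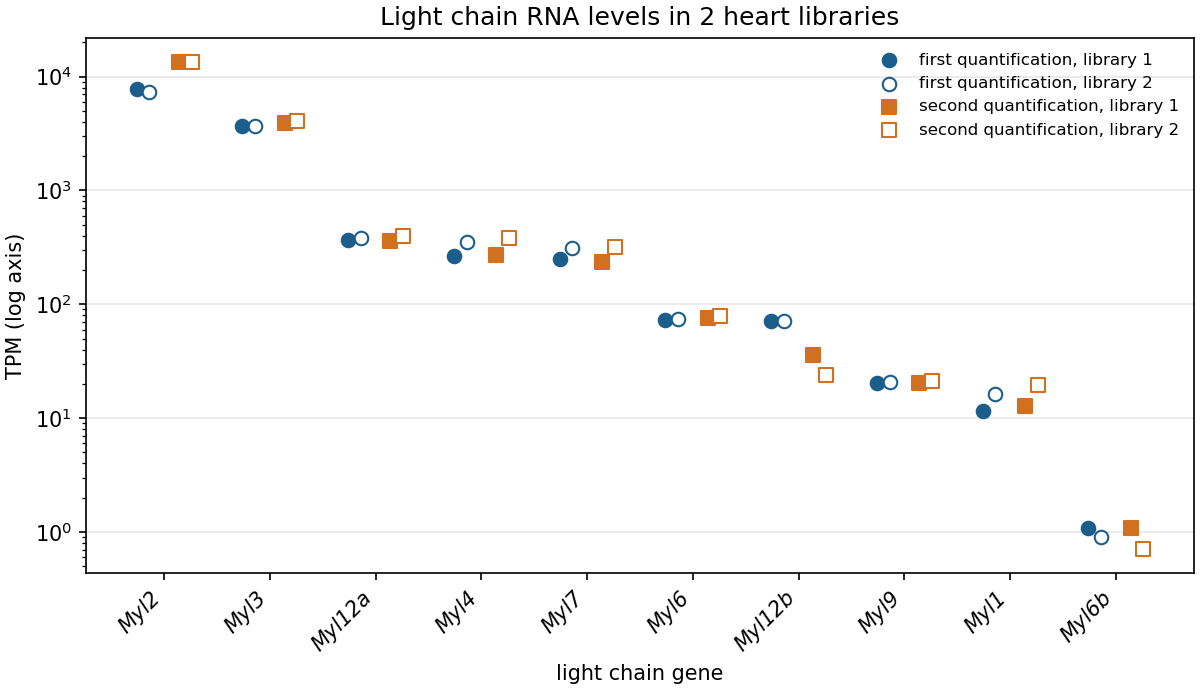
TPM of the 10 light chain genes on a log axis, ordered by mean, in each library and each of the 2 deposited quantifications, 1 point per library. Myl2 and Myl3 stand at 3646 TPM or more, the atrial pair and Myl12a between 237 and 402, and the 2 quantifications lie furthest apart for Myl2 and Myl12b.

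The second quantification put Myl2 at 13390 TPM in both libraries, 1.77 times the mean of the first, although its estimated counts of 138053 and 120154 were only 1.07 times the expected counts of 128510 and 113576. Myl12b went the other way, to 35.5 and 23.8 TPM. For the other 8 genes the second quantification's mean lay within 1.2-fold of the first. Sums and ratios that involve Myl2 or Myl12b therefore depend on which table is read. In the second quantification the family made up 5.35% and 5.36% of nuclear protein-coding TPM, with 94.4% and 93.3% of the family's TPM on the ventricular pair, 2.77% and 3.73% on the atrial pair, and 2.78% and 2.89% on the smooth muscle and nonmuscle chains.

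Atrial over ventricular ratios were below 0.1 for either chain in each library. Myl7 over Myl2 was 0.0323 in library 1 and 0.0426 in library 2, and 0.0177 and 0.0239 in the second quantification. Myl4 over Myl3 was 0.0711 and 0.0973, and 0.0691 and 0.0925 in the second. Within each chamber pair the balance of the chains was not alike. Myl3 stood at 0.477 and 0.495 of Myl2, and at 0.293 and 0.307 in the second quantification. Myl4 stood at 1.05 and 1.13 times Myl7, and at 1.15 and 1.19 times in the second. In bulk tissue, fewer cells of a type and less RNA per cell cannot be told apart.

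Although essential and regulatory chains sit on the heavy chain as a pair, their RNAs were not equal in TPM. Summed over the family, essential over regulatory chains gave 0.478 and 0.502, and 0.305 and 0.324 in the second quantification. The sarcomeric regulatory chains Myl2 and Myl7 summed to 8007 and 7672 TPM and the sarcomeric essential chains Myl1, Myl3 and Myl4 to 3976 and 4017. The 9 muscle heavy chain genes examined, led by Myh6, summed to 7403 and 7668 TPM, of which coding transcripts longer than 5000 bases held 4026 and 4098. In the second quantification the regulatory sum was 13627 and 13709 TPM, the essential sum 4213 and 4507, and the heavy chain sum 6477 and 5950. The sarcomeric regulatory sum thus lay close to that of all heavy chain transcripts in the first quantification and far above it in the second. Coding heavy chain transcripts longer than 5000 bases held 3646 and 3762 TPM in the second quantification. The regulatory sum over all its transcripts lay far above these long transcripts in both quantifications, and the essential sum was the closer to them. The sets compared are unlike, because the light chain sums keep transcripts with no annotated coding sequence. Among these, Myl2-210 held a mean of 33.0% of Myl2 TPM by the first table and 56.7% by the second. With coding transcripts alone, the first table gave means of 5047 TPM for Myl2 and 282 for Myl7. The long heavy chain transcripts averaged 4062 there, so the gap was narrower. The same limit was not run on the second table. For the nonmuscle side, Myl9, Myl12a and Myl12b summed to 469 and 484 TPM, Myl6 and Myl6b to 74.1 and 75.9, and the heavy chains Myh9, Myh10, Myh11 and Myh14 to 74.3 and 80.7. Regulatory chains thus outweighed essential chains in TPM by 6.32 and 6.38 times on this side, and by 5.69 and 5.84 times in the second quantification.

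Between the libraries, the atrial pair and Myl1 stood apart from the other members. The ratio of library 2 to library 1 in TPM was 1.35 for Myl4, 1.25 for Myl7 and 1.42 for Myl1. A ratio of at least 1.2 was found in these 3 of the 9 members that averaged 1 TPM or more with 10 or more counts in a library, where 10.9% of 11938 genes passing the same filter reached it. Myl6b, with a mean TPM of 0.995, was under the filter. A ratio of 1/1.2 or less was found in 0 of the 9 members and in 11.3% of all genes tested. Myl12b was read here at its main entry alone, and its second entry had a TPM ratio of 0.784, past 1/1.2. The median TPM ratio was 1.03 over the 9 members and 0.996 over all genes tested.

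Expected counts scaled to the library total gave narrower statements for the abundant genes. Intervals are exact (Clopper-Pearson) at 95%, and they cover counting error only. They narrow as counts rise. The shares of all genes tested include genes with as few as 10 counts and are not matched to the members in abundance. The count ratio was 1.35 for Myl4 (1.30 to 1.39), from 6227 and 7817 counts. It was 1.26 for Myl7 (1.21 to 1.32) from 4071 and 4789 counts, and 1.57 for Myl1 (1.34 to 1.85) from 253 and 370. With Myl12b read at its main entry, Myl2 was the only member with an interval below 1, at 0.949 (0.942 to 0.957). On that side lay 10.4% of all genes tested. Intervals above 1 were found for 6 of 9 members, the 3 named above with Myl12a at 1.05 (1.02 to 1.08), Myl12b at 1.17 (1.07 to 1.29) and Myl9 at 1.12 (1.01 to 1.26), against 12.8% of all genes tested. Those for Myl3, at 0.995 (0.986 to 1.00), and Myl6, at 1.06 (0.987 to 1.14), included 1. Myl9 did so in the second quantification and under DESeq2 size factors, and Myl3 moved below 1 under TMM and DESeq2 scaling, at 0.991 and 0.984. For Myl12b the TPM ratio of 1.00 and the count ratio differed, and its effective length was 359 bases in library 1 and 415 in library 2. These values belong to the main Myl12b entry. The second entry, with 280 and 182 counts, went the other way, at 0.698 (0.576 to 0.845). In the second quantification the ratio of that entry was 0.901 (0.782 to 1.04). The side on which Myl12b lay thus depended on the entry read.

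**Figure D2:**
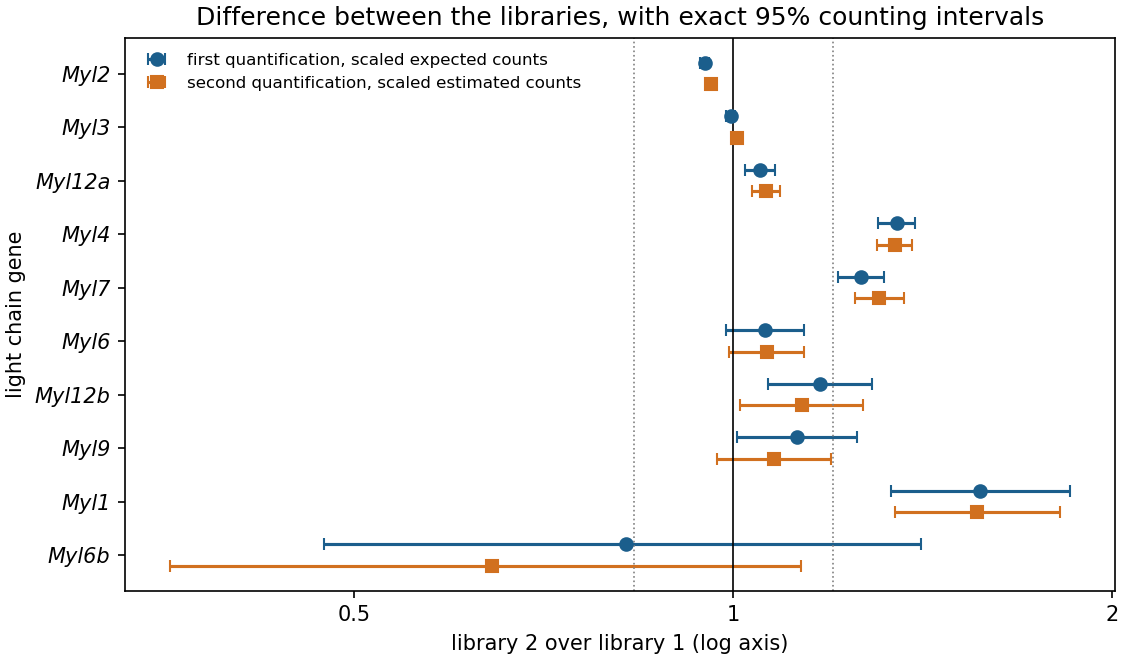
Ratio of library 2 to library 1 on a log axis for each light chain, as scaled counts with exact 95% counting intervals, in both quantifications. The solid line marks 1 and the dotted lines 1.2 and its inverse, and Myl4, Myl7 and Myl1 lie right of the 1.2 line in both quantifications.

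Other genes of the same compartments were read beside these differences. Over all 11938 genes tested, 48.2% had a higher TPM in library 2. Of 8 further atrial genes, 7 reached 1 TPM in both libraries, and 5 of those 7 were higher in library 2, with a median ratio of 1.27. Nppa, the atrial natriuretic peptide, stood at 617 and 842 TPM and Sln, sarcolipin, at 32.5 and 40.8. Dkk3 stood at 15.0 and 19.2, and the transcription factor gene Tbx5, which is not restricted to atria, at 11.6 and 10.9. Nr2f2 was also lower in library 2, at 7.34 and 5.73. Nr2f1, under 1 TPM in library 2 and so outside the 7, stood at 1.19 and 0.760. Of the 7, the count interval lay above 1 for 4 and below 1 for 1, Tbx5. All 6 further ventricular genes were lower in library 2, with a median ratio of 0.916. Among the 6 were Myh7 at 768 and 741 TPM, Fhl2 at 661 and 608 and Kcnip2 at 55.0 and 50.3. The count interval lay below 1 for 4 of them, Irx4, Myh7, Fhl2 and Prdm16. It included 1 for Kcnip2 (0.924 to 1.02) and Hey2. Lower values were also found in other lists. Of 6 endothelial markers, 5 had a count interval below 1 and 1 above it, with a median TPM ratio of 0.914, and all 6 fibroblast markers were lower in TPM, with a median ratio of 0.971 and 2 count intervals below 1. Markers of fast skeletal muscle were read beside Myl1. Of 9 listed, 6 reached 1 TPM in both libraries and all 6 had a higher TPM in library 2, with a summed TPM of 13.1 and 17.9 over the list. The count interval lay above 1 for 2 of them, Tnnc2 at 1.84 (1.05 to 3.32) and Myh4 at 1.24 (1.08 to 1.41), and included 1 for the other 4. Tnnt3, Mylpf and Tnni2 each stayed below 5 TPM and Myh1 and Myh2 at no more than 0.250. The 6 fat markers summed to 10.2 and 38.2 TPM, among them Ucp1, the uncoupling protein of brown fat, at 0.900 and 8.74. The part of atrial tissue, skeletal muscle or fat in the ratios of Myl4, Myl7 and Myl1 was not tested.

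Markers of smooth muscle and pericytes summed to 219 and 204 TPM, and 2 of 8 were higher in library 2. Acta2, smooth muscle actin, stood at 25.2 and 22.5 TPM and Rgs5, a pericyte gene, at 90.8 and 82.5, beside Myl9 at 20.3 and 20.9. The 7 cardiomyocyte genes read as a check of the tissue label were all at 1 TPM or more and summed to 24431 and 24662. Mylpf, the fast skeletal regulatory chain outside the family as defined here, stood at 2.46 and 4.23 TPM, from 43 and 45 counts. Myl10 had 0 counts in both libraries, which allows up to 3 counts in each.

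The enzymes that act on the regulatory chains were detected at lower levels than the chains of the ventricle. Of 10 kinases and activators, 8 reached 1 TPM in both libraries, and the list summed to 351 and 367 TPM. Mylk3, the cardiac light chain kinase, stood at 150 and 144 TPM, a mean of 147 ± 4.19, and led the list. Mylk4 stood at 106 and 134, with a count ratio of 1.30 (1.27 to 1.33). It was the 1 gene of those 8 past 1.2-fold in TPM in either direction. Of 11938 genes tested, 10.9% were that much higher and 11.3% that much lower. Mylk, the smooth muscle kinase, stood at 9.83 and 8.65. All 7 genes of the opposing phosphatase reached 1 TPM, with sums of 331 and 330. Its catalytic subunit Ppp1cb stood at 142 and 141 TPM and the targeting subunit of striated muscle, Ppp1r12b, at 56.9 and 58.5. The inhibitor genes Ppp1r14c and Ppp1r14b stood at 61.2 and 60.5, and at 31.7 and 32.9.

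The family is annotated with 71 transcripts, and the gene totals above hide disagreement on which of them carried the RNA. For 9 members with more than 1 transcript, the leading transcript was the same in both libraries and both quantifications for 3, Myl3, Myl6b and Myl9. It differed for Myl1, Myl2, Myl4, Myl6, Myl12a and Myl12b. Myl7 has 1 annotated transcript of 590 bases. Of the 26 transcripts that held at least 10% of an entry's TPM in either quantification and a library, the mean share of 22 moved between the quantifications by more than the SD over the libraries.

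**Figure D3:**
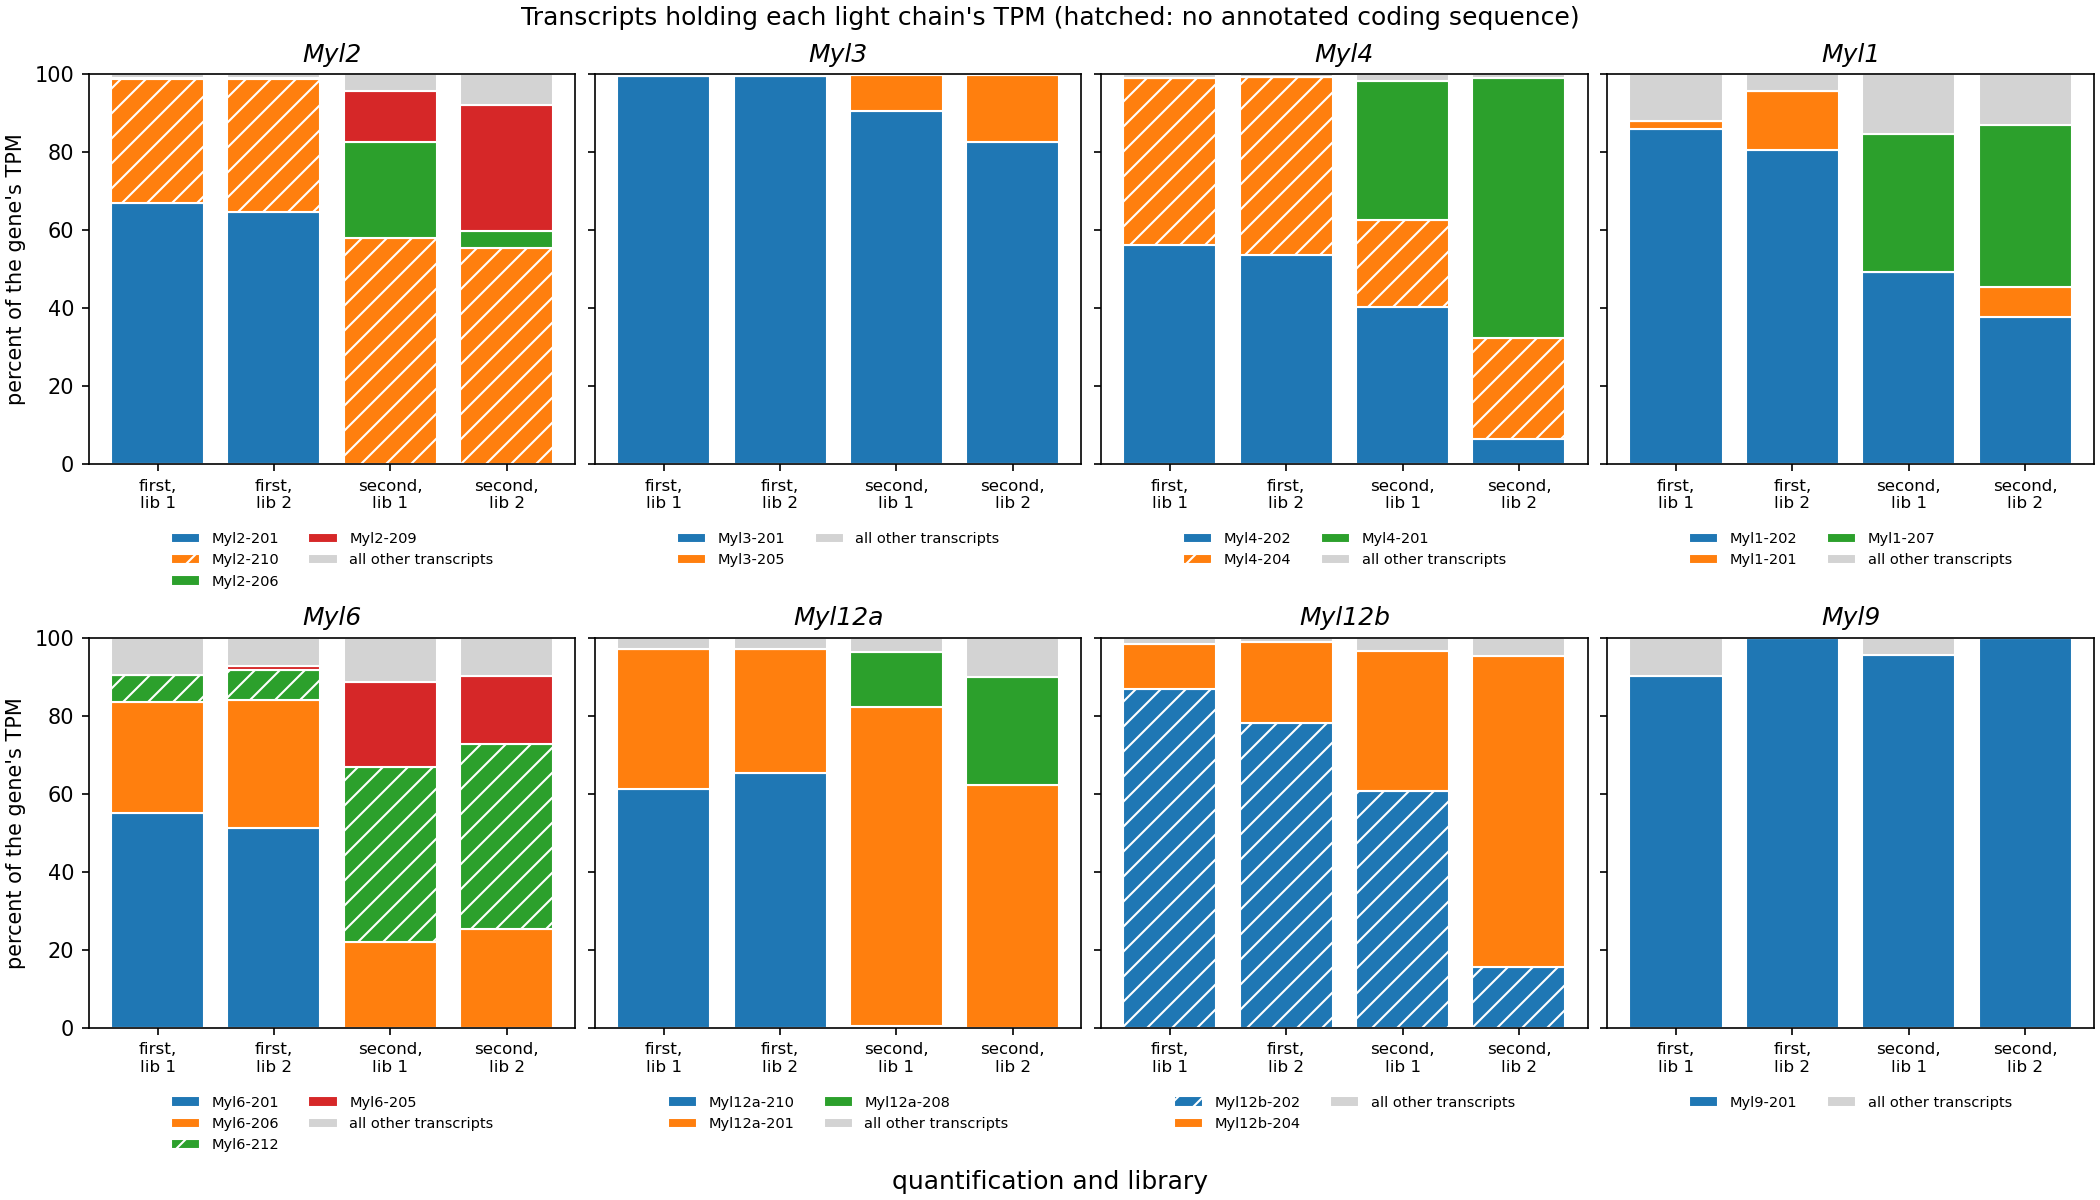
Percent of each gene's TPM held by its transcripts, as stacked bars for each quantification and library, with hatching for transcripts that have no annotated coding sequence and grey for all others. Myl3 and Myl9 are led by 1 transcript throughout, while the bars of Myl2, Myl4, Myl6 and Myl12a change between the quantifications.

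For Myl2 the disagreement concerned a short transcript with no annotated coding sequence. Myl2-201, of 662 bases and 7 exons, encodes the full chain and held 67.1% and 64.6% of Myl2 TPM in the first quantification, and 0 counts in the second. Myl2-210, of 467 bases and 5 exons, held 31.8% and 34.3% in the first and 57.9% and 55.5% in the second. It shares 417 bases with Myl2-201 and differs from it by a first exon of 50 bases (chromosome 5, 122103181 to 122103230), which is printed here in capitals because these are its only bases that Myl2-201 lacks, with the first 20 shared bases after it in lower case.
Myl2-210: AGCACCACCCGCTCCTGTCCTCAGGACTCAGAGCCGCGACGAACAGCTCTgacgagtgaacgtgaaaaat
The second quantification placed most of the rest on the coding transcripts Myl2-206 and Myl2-209, of 476 and 473 bases, which held 0.136% and 0.119% in the first. Their shares in the second exchanged places between the libraries. Myl2-206 held 24.8% in library 1 and 4.34% in library 2, and Myl2-209 held 13.0% and 32.3%. The 3 transcripts favoured by the second table are shorter than Myl2-201, and the effective length there was 247 and 234 bases for Myl2-210 but 442 and 428 for Myl2-201. Limited to transcripts annotated as protein coding, Myl2 stood at 5047 TPM on average in the first quantification.

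**Figure D4:**
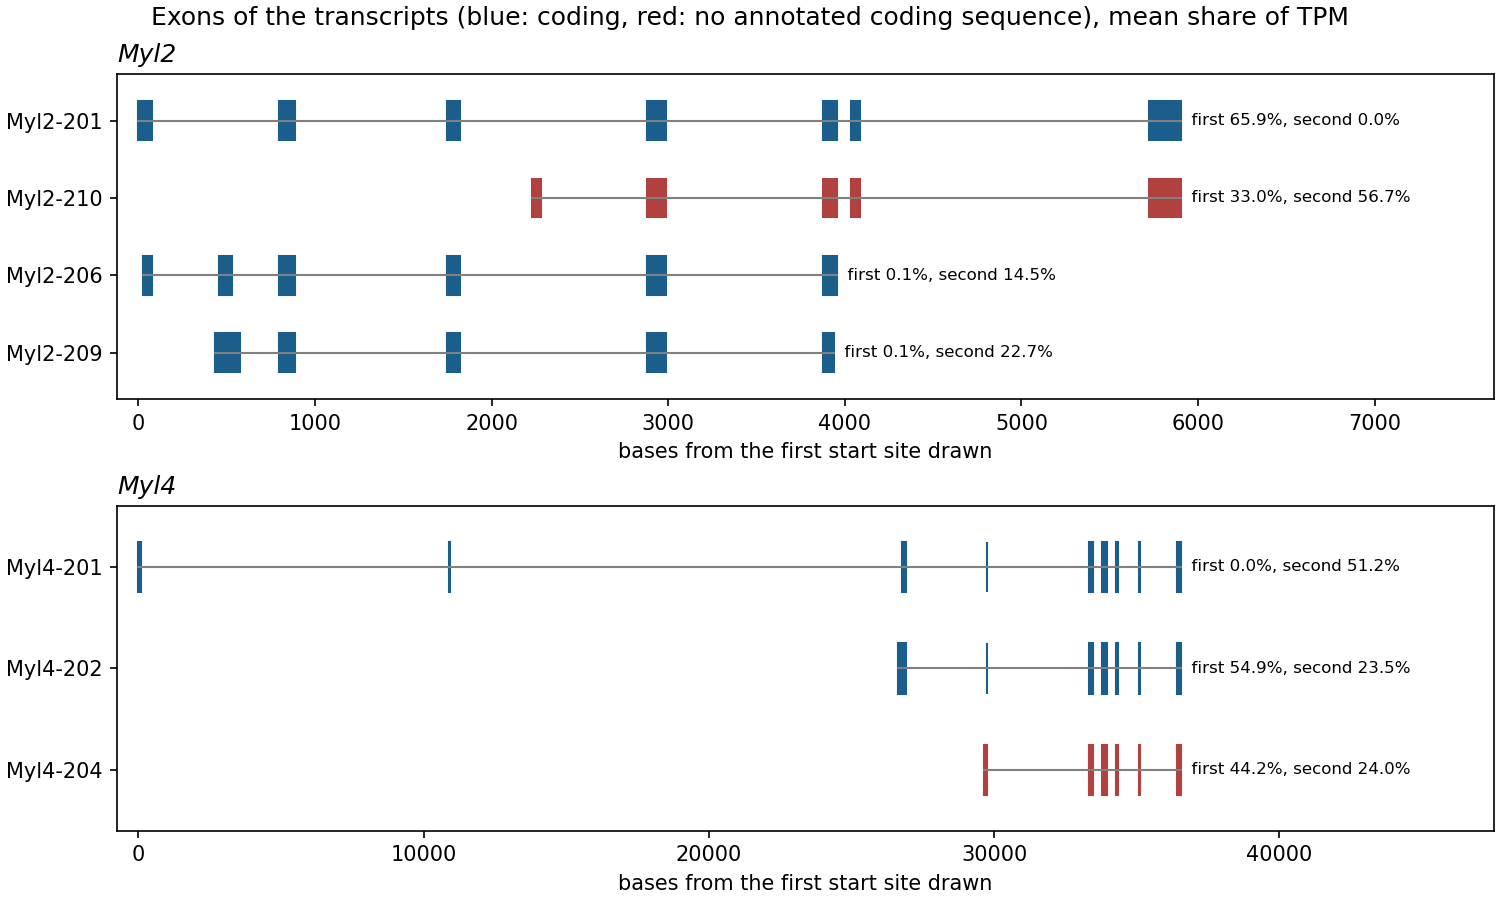
Exons of the main Myl2 and Myl4 transcripts in bases from the first start site drawn, in blue where the transcript is annotated as coding and in red where it has no annotated coding sequence, with the mean share of the gene's TPM in the first and second quantification. Myl2-210 shares its last 4 exons with Myl2-201, and Myl4-201 starts 26618 bases before Myl4-202.

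Myl4 has a proximal and a distal start. Myl4-202 starts at position 104577281 and Myl4-201 at 104550663, 26618 bases upstream, and both carry the same coding length of 579 bases. In the first quantification Myl4-202 held 56.1% and 53.7% of Myl4 TPM and Myl4-201 held 0. In the second, Myl4-201 held 35.8% in library 1 and 66.6% in library 2, and Myl4-202 held 40.4% and 6.61%. Myl4-204, of 677 bases and annotated as a retained intron, held 42.9% and 45.5% in the first quantification and 22.1% and 25.9% in the second. The share of Myl4 TPM on the distal-start transcript thus ranged from 0 to 66.6% over the 4 values. Both values of 0 came from the first quantification, so the range includes the disagreement between the quantifications. Myl4-204 is annotated to start at 104580325, downstream of both starts, and from which start its share came cannot be told. The summed Myl4 counts, in contrast, gave a ratio between the libraries of 1.35 in the first and 1.34 in the second quantification.

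The promoter of Myl4 in RefSeq is the one at the distal start, and it is shown with those of Myl7 and Myl3, whose RefSeq starts lie at or within 32 bases of the start of an annotated leading transcript. Each window runs from 250 bases before to 50 bases after the start in GRCm38.p6, written 5′ to 3′ on the gene's own strand, at chr11:104550413-104550712 for Myl4 (plus), chr11:5898733-5899032 for Myl7 (minus) and chr9:110763428-110763727 for Myl3 (plus). Capitals mark a CArG box, the site known to be bound by serum response factor.
Myl4: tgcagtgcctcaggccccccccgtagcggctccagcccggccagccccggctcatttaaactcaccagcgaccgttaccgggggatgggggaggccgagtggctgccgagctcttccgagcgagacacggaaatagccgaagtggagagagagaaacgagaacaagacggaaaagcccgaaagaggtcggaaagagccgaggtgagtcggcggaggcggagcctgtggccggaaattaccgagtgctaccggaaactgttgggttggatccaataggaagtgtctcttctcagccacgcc
Myl7: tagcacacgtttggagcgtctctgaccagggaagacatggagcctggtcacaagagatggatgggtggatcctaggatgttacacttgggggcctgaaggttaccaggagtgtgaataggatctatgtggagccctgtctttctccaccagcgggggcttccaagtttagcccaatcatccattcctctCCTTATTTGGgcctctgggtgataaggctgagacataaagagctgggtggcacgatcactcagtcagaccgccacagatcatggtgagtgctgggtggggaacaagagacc
Myl3: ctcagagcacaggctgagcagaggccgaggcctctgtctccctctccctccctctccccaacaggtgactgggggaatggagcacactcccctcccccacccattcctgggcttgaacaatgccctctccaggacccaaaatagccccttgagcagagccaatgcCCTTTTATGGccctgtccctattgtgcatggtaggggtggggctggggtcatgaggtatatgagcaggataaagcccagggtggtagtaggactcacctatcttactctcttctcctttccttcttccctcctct
The CArG box begins at base -61 in Myl7 and -85 in Myl3, counted from the RefSeq start. The table held 12 windows for the 10 members, and a CArG box was found in 4 of them, those of Myl3, Myl7, Myl9 and 1 of the 2 windows of Myl6, against 1.63% of 32851 promoters. TATAAA was found in 2 of 12 windows (13.6% of all promoters), AGATAA, the core recognised by GATA factors, in 1 (11.2%), the E-box CANNTG in 10 (72.3%), and the MEF2 site in 0 (3.19%). Both strands were searched, and no match overlapped one of another motif. The Myl4 window held none of these 5 motifs. The windows listed for Myl2 lie 8227 and 7762 bases from the nearest annotated start of the gene and are not shown. They are nevertheless counted among the 12. The AGATAA match came from 1 of them and a TATAAA match from the other, while the remaining TATAAA match was in Myl1. Both Myl2 windows held an E-box and neither held a CArG box. A match is a description of letters and not of binding.

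Myl1 is known for a long and a short form made from separate starts. Transcripts that begin at an internal first exon held 92.8% and 84.5% of Myl1 TPM in the first quantification and 93.1% and 84.3% in the second. They include Myl1-202, with a coding sequence of 450 bases, which starts at 66935354. They also include Myl1-208, a retained intron that starts downstream of it, at 66934698. Myl1-208 held 5.75% and 2.83% in the first quantification and 0 and 4.06% in the second. Transcripts from distal starts, 9789 bases or more upstream of that of Myl1-202, held 7.24% and 15.5%, and 6.87% and 15.7%. Among them Myl1-206 led in library 1 and Myl1-201 in library 2, in both quantifications. The longest coding sequence, of 564 bases, is annotated on Myl1-201, while Myl1-206 has 372 coding bases and Myl1-205 none. Myl1-201 alone held 2.01% and 15.1% in the first quantification and 0.000148% and 7.88% in the second. The tables gave like shares by start, although Myl1-207, another transcript with an internal start, held 0 in the first and 35.3% and 41.6% in the second. The distal-start transcripts together rest on 17 and 77 expected counts.

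Myl6 makes a pair of protein ends through a cassette exon of 45 bases (chromosome 10, 128491720 to 128491764). The transcript that includes it, Myl6-206, held 28.5% and 32.8% of Myl6 TPM in the first quantification and 21.9% and 25.4% in the second. Transcripts that skip it held 63.6% and 60.4%, and 67.6% and 65.2%. Skipping exceeded inclusion in both libraries by either table. Which skipping transcript led was less certain. Myl6-201 held 54.9% and 51.2% in the first and 0 counts in the second, where Myl6-212, annotated as a retained intron, held 44.9% and 47.4%. The ends of the 2 coding sequences, each of 453 bases, are given with the stop codon in capitals because they show what the exon changes.
Myl6-206, exon included: catttgtgaggcatatcctgtcggggTGA
Myl6-201, exon skipped: agcttgtccggatggtgctgaatggcTGA
The 2 ends differ at 14 of 29 positions.

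Myl12a and Myl12b lie side by side on chromosome 17 and nearly match in sequence. Over 550 aligned transcript bases they differ by 18 mismatches and 1 gap. The second Myl12b entry (70974119 to 71002208) spans both genes and has 2 transcripts of unlike make-up. Myl12b-206 takes 462 of its 636 bases from Myl12a exons and 174 from Myl12b exons, whereas Myl12b-205 takes 98 of its 837 from Myl12a and 739 from Myl12b. The entry stood at 13.9 and 10.9 TPM, of which Myl12b-206 held 64.3% and 100%. In the second quantification it stood at 17.8 and 16.3 TPM, all of it on Myl12b-205. The 3 entries together held 11476 and 11230 expected counts, of which Myl12a held 90.2% in both libraries, and 91.4% and 91.6% in the second quantification. In TPM, Myl12a over both Myl12b entries was 4.29 and 4.64, and 6.77 and 10.0 in the second. At the main Myl12b entry, Myl12b-202, a retained intron of 369 bases, held 87.0% and 78.1% in the first quantification and 60.7% and 15.5% in the second, and the coding transcript Myl12b-204 held 11.5% and 20.7%, then 36.0% and 79.9%. On coding transcripts alone the main Myl12b entry stood at 12.0 TPM on average in the first quantification. For Myl12a, Myl12a-210 held 61.1% and 65.3% in the first and 0.421% and 0.0509% in the second, where Myl12a-201 held 81.9% and 62.1%, and both encode the same number of residues. The level of Myl12b is therefore reported as uncertain.

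Reads of other members could also be shared with copies. Myl6 matched 5 processed pseudogenes at 95% identity or more over at least 100 bases. Of these, Gm5526, with 3 mismatches over 410 bases, was assigned 177 and 125 counts in the first quantification and 0 and 1.39 in the second, beside 1562 and 1541 for Myl6 in the first. Gm8894 was assigned 1.64 and 0 in the first, and 86.6 and 65.9 in the second. Myl1 matched Mylf-ps, with 2.85 and 0 counts, and Myl12a matched Gm6517, at 0.810 and 0.700 TPM. Myl2, Myl3, Myl4, Myl6b, Myl7 and Myl9 had no such match. On the opposite strand, Myom1, the M-band protein gene with 45359 and 40265 counts, overlaps the first annotated bases of Myl12a, and Pth1r with 98 and 117 counts overlaps the distal first exon of Myl3-205. Myl3-205 held 0 in the first quantification and a mean of 13.1% of Myl3 TPM in the second. Whether strand was used in the counting is not given in the sources used here.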

How the data were processed

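Total RNA from 1 group of 2 heart libraries was analysed, with groups and replicate numbers taken from the labels. The genome build was mm10 and the annotation GENCODE M21, per the deposited readme. Neither aligner nor quantification tools are named in these sources. In the first quantification each library has a gene and a transcript table that, per the file headers, hold expected counts, TPM and FPKM, with a posterior mean TPM. The deposited transcript tables also give each transcript's percent of its gene, and shares were recomputed here from transcript TPM for both quantifications. The deposited credibility bounds, read as a score, were not used. The second quantification is a deposited transcript table of estimated counts and TPM in the column layout of kallisto, and was added up over each gene's transcripts. Effective length was 100 bases below length in the first quantification, and 220 and 234 bases below it in the second.

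Expected counts were rounded, scaled to the total of annotated genes (39668202 and 36926511), and compared as ratios with exact conditional binomial (Clopper-Pearson) 95% intervals. Entries outside the annotation held 151758 and 133608 counts and stayed out of these totals. The ratio step was run on simulated counts drawn with counting (Poisson) error alone, which checks the calculation only. The simulation held no further spread between libraries and no division of reads among similar transcripts. With 1 group there was no test and no p-value. The members and gene lists, and the 1.2-fold rule, were chosen with earlier results of these data known. Named genes were all members, up to 4 per list by mean TPM, the 3 nearest in level to Myl2, Myl3, Myl4 and Myl7, transcripts with at least 10% of an entry, and overlapping or matching genes with counts. Further list genes (Dkk3, Tbx5, Ucp1, Kcnip2, Mylk, Tnni2, Tnnc2, Myh1 and Myh2 among them) were named after their values were seen. Myl12b was read at the main entry for its level, and at both entries in sums. Transcripts were matched with BLAST 2.17.0, and coding sequences were aligned with Biopython 1.88. Promoters came from RefSeq (GRCm38.p6). Size factors came from edgeR 4.0.16 (TMM) and DESeq2 1.42.0. Other software was R 4.3.3, scipy 1.17.1, numpy 2.4.6, matplotlib 3.10.9, pandas 2.3.3 and Python 3.11.15. Alternatives were the second quantification, FPKM, posterior mean TPM, coding or longer transcripts only, counts not divided by length, other scalings, pseudocounts, filters and folds, and each library alone.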

Additional observations from a re-analysis of the deposited data

How the results depend on the processing

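Against a mean of 0.0374, Myl7 over Myl2 was 0.0208 in the second quantification and 0.0563 over protein-coding transcripts only. Myl4 over Myl3, with a mean of 0.0842, moved beyond the spread of the libraries in 1 alternative, protein-coding transcripts only (0.0465). Essential over regulatory chains, with a mean of 0.490, was 0.314 in the second quantification, 0.682 over protein-coding transcripts, 0.750 over transcripts of at least 600 bases and 0.786 from expected counts not divided by length. Myl2 and Myl3 held 93.8% of the family in the second quantification against 90.7%. The cause of these moves was not tested. Each library alone gave 0.0323 to 0.0426, 0.0711 to 0.0973, 0.478 to 0.502 and 89.8% to 91.5% for these 4 values. FPKM and posterior mean TPM moved none of them beyond the spread. No member reached 1.5-fold higher (0 of 9), where 2.67% of all genes did. The count of members at 1/1.2 or lower was 1 in the second quantification (Myl12b) and 1 with no filter on low values (Myl6b). Myl4, Myl7 and Myl1 were the 3 members at least 1.2-fold higher under every other alternative run. Myl7 has no transcript of 600 bases or more, so that alternative gives no value for it. The 0.750 for essential over regulatory chains therefore leaves Myl7 out of the regulatory sum.

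No paired analysis was possible because the labels give a single group. With 2 libraries the SD is itself imprecise, and differences below the counting interval were not detectable for Myl6b at 34 and 26 counts.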
